A study of Mus musculus with 57 samples.

Results

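The 10 genes described here are Nfe2l2, which encodes the transcription factor NRF2, and 9 genes of antioxidant and carbonyl-reducing enzymes: Nqo1, Cbr1, Cbr3, Gclc, Gclm, Gsr, Txnrd1, Srxn1 and Hmox1. They were taken by symbol, 10 of the 52853 genes in 3 RNA-seq count tables of mouse fat. Cbr3 was selected on its measured level, a strong rise in mutant brown fat in these same counts, so its values in brown fat are given as a description with no test. The other members belong to the list by their known roles, but the list was drawn up with earlier results of these data known. The mice were male, on a C57BL/6J background, and either wild-type (WT) or homozygous for a knock-in (KI) of the R707W substitution in mitofusin 2, the outer-membrane GTPase that fuses mitochondria. The KI colony came from a single CRISPR-edited founder, carries a further silent change used for genotyping, and has the substitution in every tissue. From 5 weeks of age the mice ate chow or a high-fat diet (HFD, 45% of energy as fat) for 6 months. Brown adipose tissue (BAT) was sequenced from 6 WT and 6 KI mice on HFD, inguinal white adipose tissue (inguinal WAT) from 8 WT and 8 KI mice on HFD, and inguinal WAT from 7 WT and 6 KI mice on chow. The study asked what the substitution does to adipose gene expression, by depot and by diet.

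NRF2 is held at a low level by KEAP1, which hands it to a ubiquitin ligase. When oxidants or electrophiles modify KEAP1, NRF2 accumulates, pairs with a small MAF protein and binds antioxidant response elements. BACH1 is a competing repressor at such elements. The classic targets of NRF2 make glutathione (Gclc and Gclm), recycle it (Gsr), reduce thioredoxin and peroxiredoxins (Txnrd1 and Srxn1), reduce quinones and carbonyls (Nqo1, Cbr1 and Cbr3) and break down haem (Hmox1). Much of this control acts on the NRF2 protein, which was not measured here.

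All values are from poly(A) RNA of whole tissue, in which fewer cells of a type and less RNA per cell cannot be told apart. Total counts ran from 8042591 to 11720458 per mouse in BAT and in inguinal WAT on chow, and from 17572752 to 25680411 in inguinal WAT on HFD, where each mouse has 2 technical replicates in the labels and 1 column in the table. Brown adipocyte markers (6 genes including Ucp1 and Cidea) summed to 9334 to 16133 CPM (counts scaled to library size) in BAT and to 11.3 to 493 CPM in inguinal WAT, and adipocyte markers to 20427 to 36287 CPM in every library, so both depots carried the markers of their labels. Some libraries stood apart. Skeletal muscle markers (6 genes including Acta1 and Ckm) reached 56906 CPM in chow KI mouse 4, against 38.8 to 285 CPM in the other chow KI mice, and 2415 and 2772 CPM in BAT WT mice 1 and 2. In inguinal WAT on HFD they reached 3503 and 1932 CPM in KI mice 3 and 5, and at most 1053 CPM in WT mice. Chow WT mouse 4 had the highest macrophage (1956 CPM) and epithelium (127 CPM) marker sums of its group. Mfn2 itself, the edited gene, had log2 fold changes in KI of 0.29 in BAT (adjusted p = 0.113), 0.34 in inguinal WAT on HFD (adjusted p = 0.0114) and 0.36 on chow (adjusted p = 0.0840), none called by edgeR. A substitution need not change the level of its gene, so these values do not check the genotype labels.

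The promoters of the members were searched for the core of the antioxidant response element, TGACNNNGC, on both strands, to show where the sequence that NRF2 binds occurs near their starts. RefSeq windows from 250 bases before to 50 bases after a start (build GRCm38.p6) were at hand for 7 of the 10 members, 9 windows in all, and 4 of these held the core, in 4 members. Over all 32851 such windows, 12.4% held it. The 4 stretches are printed 5′ to 3′, all on the minus strand of the genome, with the core in capitals and 10 bases on each side.
Nfe2l2, chr2:75704885-75704913, core centred at position -236, counted from 0 at the start: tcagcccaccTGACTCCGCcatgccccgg
Gclm, chr3:122245413-122245441, core centred at position -130: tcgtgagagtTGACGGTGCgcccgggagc
Txnrd1, the second of 3 windows, chr10:82859104-82859132, core centred at position -88: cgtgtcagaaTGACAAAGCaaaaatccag
Srxn1, chr2:152105542-152105570, core centred at position 32, downstream of the start: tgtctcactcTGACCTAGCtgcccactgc
The windows of Nqo1, Cbr1 and Cbr3 did not hold these letters, which says nothing about elements farther away. The Cbr1 window surrounds a start inside the gene as the count tables place it. A match is a description of the sequence, and binding was not measured.

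Cbr3 and Cbr1 encode carbonyl reductases of the short-chain dehydrogenase family, which use NADPH to reduce quinones and other carbonyls. They lie on the same strand of chromosome 16 (GRCm38), Cbr1 (ENSMUSG00000051483) at chr16:93605853-93610505 and Cbr3 (ENSMUSG00000022947) at chr16:93683215-93690990, with 72.7 kb between them. Their transcripts share stretches of at most 50 identical bases, and the reads were 150 bases long and paired, so no full read could match both transcripts exactly.

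In BAT, the Cbr3 level was 5.74 to 9.94 CPM in WT mice, with a median of 9.02 CPM. In KI mice it was 37.1 to 164 CPM, with a median of 114 CPM. The 6 KI mice and the 6 WT mice did not overlap, and the fitted difference of 3.63 on the log2 scale is 12.3-fold. The counts behind it were 34 to 79 per WT mouse and 231 to 1130 per KI mouse. Leaving out each mouse in turn kept the log2 difference between 3.49 and 3.82. Per kilobase of transcript, the mean Cbr3 level in BAT was 6.82 CPM in WT mice, seventh of the 10 members, and 86.8 CPM in KI mice, second after Cbr1.

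The Cbr3 level in inguinal WAT on HFD was 3.50 to 7.80 CPM in WT mice, with a median of 4.98 CPM. KI mice had 2.96 to 6.81 CPM, with a median of 5.06 CPM. The groups overlapped almost completely, and the log2 fold change was -0.08 with a 95% confidence interval of -0.44 to 0.29 (edgeR adjusted p = 0.817), or 0.0042 with library totals in place of normalization factors. On chow, WT mice had 5.66 to 9.02 CPM (median 7.34) and KI mice 7.65 to 20.1 CPM (median 9.78). There 5 of the 6 KI mice exceeded the whole WT range, and the log2 fold change of 0.68 (SE 0.21) did not pass the test (adjusted p = 0.0598). Ordered by group mean, Cbr3 stood highest in BAT of KI mice, followed by inguinal WAT of KI mice on chow, BAT of WT mice, inguinal WAT of WT mice on chow and the HFD inguinal groups. All groups after the first overlapped their neighbours in this order.

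Cbr1 also rose in BAT. Its level in BAT was 97.9 to 128 CPM in WT mice, with a median of 116 CPM. In KI mice it was 117 to 329 CPM, with a median of 265 CPM. Mouse 5 was the single KI mouse that fell within the WT range, and the other 5 lay above it. The log2 fold change was 1.07 (SE 0.19, 2.10-fold) and passed the test (edgeR quasi-likelihood test, Benjamini-Hochberg adjusted p = 0.00385, threshold 0.01 over all genes tested). It stayed called in 10 of 12 fits with 1 mouse left out, and without WT mouse 4 or WT mouse 6 the adjusted p was 0.0119 and 0.0106.

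In inguinal WAT Cbr1 was lower, and its difference between genotypes was small. On HFD it was 42.8 to 58.8 CPM in WT mice and 47.9 to 63.5 CPM in KI mice, a log2 fold change of 0.18 (adjusted p = 0.105). On chow it was 53.4 to 76.9 CPM and 64.2 to 118 CPM, a log2 fold change of 0.25 (adjusted p = 0.265). Neither passed the test. The difference of the genotype effect between BAT and inguinal WAT, both on HFD, was 0.93 on the log2 scale (SE 0.19, 95% confidence interval 0.54 to 1.32, adjusted p = 0.00229) and did pass, though with library totals in place of normalization factors it was 0.83 with an adjusted p of 0.0119. The labels do not say whether both depots came from the same animals, and the mice were taken as independent. BAT and inguinal WAT were sequenced as separate tables, and the depot and the table cannot be told apart. For Cbr3 the same difference was 3.74, with no test.

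**Figure D1:**
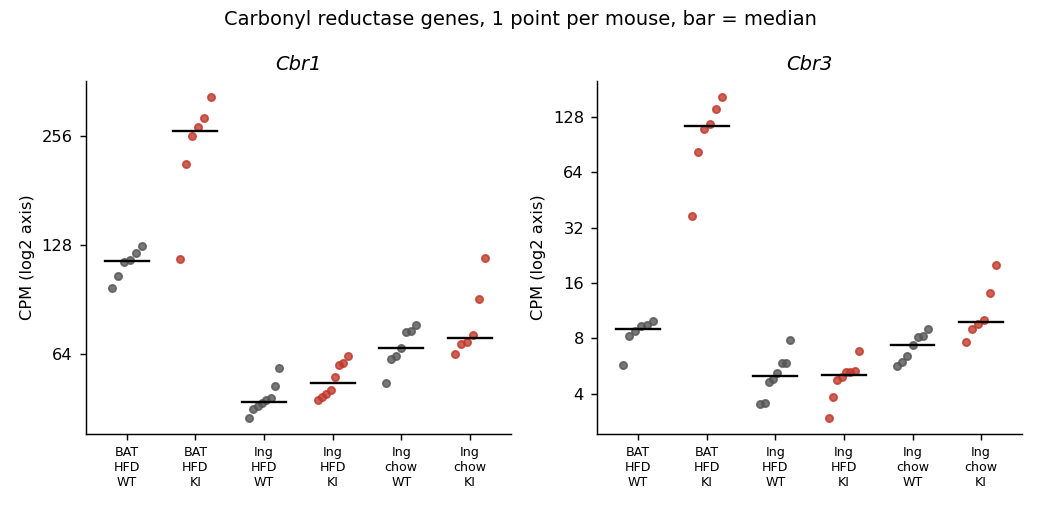
Level of Cbr1 and Cbr3 in each mouse (CPM, log2 axis), by depot, diet and genotype; Ing is inguinal WAT and the bar is the median. In BAT all 6 KI mice lie above the WT mice for Cbr3 and 5 of 6 for Cbr1, while the genotypes overlap in inguinal WAT.

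The genes around Cbr3 were read for the same comparison. Of the 9 other genes whose start lies within 200 kb, 5 were tested. Cbr1 was the only one of these 5 that passed the test in any of the 3 comparisons of genotype. In BAT, Setd4, a methyltransferase gene next to Cbr1, had a log2 fold change of -0.13 (adjusted p = 0.775). Dop1b, the nearest tested gene downstream, had 0.16 (adjusted p = 0.392). Morc3 had -0.29 (adjusted p = 0.153), and 2310043M15Rik had -0.85 (adjusted p = 0.138). 2310043M15Rik lies within Dop1b on the other strand, and whether the counting used strand is not given in the sources used here, so reads of the pair cannot be told apart.

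**Figure D2:**
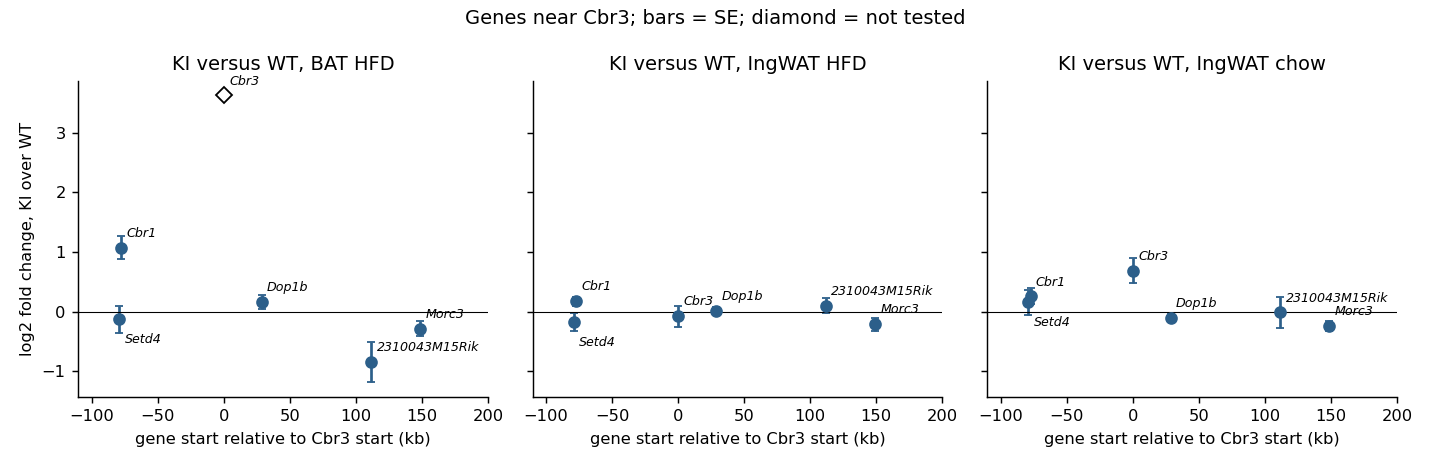
Log2 fold change (KI over WT) of the tested genes near Cbr3 against the distance of their start from that of Cbr3 in kb, in the 3 comparisons of genotype; bars are the SE and the open diamond was not tested. In BAT, Cbr3 at 3.63 and Cbr1 at 1.07 stand above Setd4, Dop1b, 2310043M15Rik and Morc3, which lie between -0.85 and 0.16.

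Of the thioredoxin arm, Txnrd1 rose in BAT and Srxn1 lay at the threshold. Txnrd1 encodes the cytosolic thioredoxin reductase. Its level was 64.2 to 87.7 CPM in BAT of WT mice, with a median of 74.7 CPM. KI mice had 95.9 to 144 CPM, with a median of 108 CPM, and all 6 exceeded the whole WT range. The log2 fold change of 0.54 (SE 0.11, 1.46-fold) passed the test (adjusted p = 0.00710). The call was lost in 8 of 12 fits with 1 mouse left out, with adjusted p up to 0.0199 and log2 fold changes of 0.48 to 0.60, so it rests close to the threshold.

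Srxn1 encodes sulfiredoxin, which repairs over-oxidized peroxiredoxins. Its level in BAT was 42.9 to 67.6 CPM in WT mice, with a median of 56.1 CPM. In KI mice it was 59.6 to 115 CPM, with a median of 93.3 CPM, and 5 of 6 exceeded the whole WT range. The log2 fold change was 0.67 (SE 0.14, 1.59-fold) with an adjusted p of 0.0101, just above the threshold, and was not called. DESeq2 called it (adjusted p = 0.000539), as did edgeR with other size factors, other filters on low counts or 1 fit of all 6 groups. In 10 of 12 edgeR fits with 1 mouse left out it was not called, with adjusted p up to 0.0320.

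With these values, 2 of the 9 members tested in BAT were called, Cbr1 and Txnrd1, both higher in KI mice. Of all 13267 genes tested there, 1.83% were called. The list was drawn up with this comparison in view, so its share is a description. The median log2 fold change was 0.54 over the 9 members and -0.01 over all genes tested. Without KI mouse 1, 2 or 3, or without WT mouse 1, 2 or 3, 1 member was called, and without WT mouse 4 or WT mouse 6 none was. Of these, WT mice 1 and 2 had the highest skeletal muscle marker sums in BAT. Fibroblast markers summed to 412 to 911 CPM in WT and 269 to 437 CPM in KI BAT, with 1 of 5 called lower, and their part in the members' values was not tested.

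In inguinal WAT neither gene of this arm was called by edgeR. On HFD, Srxn1 had a log2 fold change of 0.03 (adjusted p = 0.871), with 17.6 to 25.2 CPM in WT mice and 14.5 to 26.7 CPM in KI mice. On chow, it had 20.2 to 33.1 CPM in WT mice and 28.7 to 68.0 CPM in KI mice. Again 5 of 6 KI mice exceeded the whole WT range, and the log2 fold change of 0.68 (SE 0.18) missed the threshold (adjusted p = 0.0317). KI mouse 1, at 68.0 CPM, was the highest by far, and without it the log2 fold change was 0.49. Txnrd1 had a log2 fold change of 0.21 on HFD (adjusted p = 0.0844) and 0.07 on chow (adjusted p = 0.770). The difference of the genotype effect between depots on HFD was 0.67 for Srxn1 (adjusted p = 0.0173) and 0.37 for Txnrd1 (adjusted p = 0.1002), neither called by edgeR. DESeq2 called Srxn1 (adjusted p = 0.00627).

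None of the glutathione genes among the members was called in BAT. Gclc and Gclm encode the catalytic and modifier subunits of glutamate-cysteine ligase, the first step of glutathione synthesis, and Gsr encodes glutathione reductase. Their log2 fold changes in BAT were 0.13 for Gclc (95% confidence interval -0.16 to 0.41), 0.04 for Gclm (-0.31 to 0.40) and -0.05 for Gsr (-0.35 to 0.25). Gclm was 33.4 to 37.1 CPM in 5 KI mice and 71.8 CPM in KI mouse 5, and without that mouse its log2 fold change turned to -0.17.

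In inguinal WAT on HFD, Gclc was the member that passed. Its level was 29.4 to 40.98 CPM in WT mice, with a median of 31.4 CPM. In KI mice it was 35.6 to 52.2 CPM, with a median of 42.3 CPM, and 5 of 8 KI mice exceeded the whole WT range. The log2 fold change was 0.39 (SE 0.09, 1.31-fold, adjusted p = 0.00560). In 8 of 16 fits with 1 mouse left out the adjusted p rose above the threshold, to at most 0.0136, while the log2 fold change stayed between 0.35 and 0.44. The ligase's other subunit, Gclm, had a log2 fold change of -0.02 (adjusted p = 0.908, or 0.07 with library totals), and Gsr one of 0.17 (adjusted p = 0.0608). So 1 of 10 members was called in inguinal WAT on HFD, where 11.5% of the 16471 genes tested were called, a share near that of all genes. The median log2 fold change was 0.14 over the members and 0.01 over all genes tested. Without KI mouse 5 the count was 2 and without KI mouse 7 it was 0. Brown adipocyte markers summed to 11.3 to 22.7 CPM in WT and 20.1 to 46.0 CPM in KI mice here, with 1 of 3 tested called higher. Fibroblast markers summed to 1685 to 2957 CPM and 1348 to 2167 CPM, with 1 of 5 called lower, and the part of either in the members' values was not tested.

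On chow no member was called by edgeR, against 3.23% of 14629 genes tested. DESeq2 called 1, Srxn1, against 6.69% of the genes it tested. By edgeR, 5 of the 10 members had an unadjusted p below 0.05, as did 3560 of the 14629 genes tested. Apart from Hmox1 at -0.11, the log2 fold changes were above 0, from 0.07 to 0.68, with a median over the 10 members of 0.29 against -0.01 over all genes tested. Gclm had 29.4 to 42.7 CPM in WT mice and 39.2 to 66.0 CPM in KI mice, a log2 fold change of 0.42 (adjusted p = 0.0574). Gclc had 0.26 (adjusted p = 0.207) and Gsr 0.24 (adjusted p = 0.239). Gsr was highest in KI mouse 4, the library with skeletal muscle markers, at 54.1 CPM, and without that mouse its log2 fold change was 0.13.

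Brown adipocyte markers moved with genotype in these chow libraries. They summed to 18.2 to 62.6 CPM in WT mice and 78.4 to 493 CPM in KI mice, with no overlap, and 1 of the 3 markers tested was called higher. KI mouse 1 had both the highest brown adipocyte marker sum and the highest Cbr1, Cbr3, Gclm and Srxn1 levels of its group. The same mouse had the lowest Gsr (33.0 CPM) and Txnrd1 (61.2 CPM) of its group. Fibroblast markers, 5 genes, summed to 1994 to 4142 CPM in WT mice and 1310 to 1996 CPM in KI mice, and 1 of the 5 was called lower. The part of these markers in the members' values was not tested.

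Nqo1 encodes the cytosolic quinone reductase, and it had the lowest level per kilobase of the 10 members in 5 of the 6 groups. In BAT it was 2.09 to 3.54 CPM in WT mice and 2.57 to 5.81 CPM in KI mice, a log2 fold change of 0.57 (SE 0.25, adjusted p = 0.165). In inguinal WAT on HFD it was 4.47 to 8.48 CPM and 6.02 to 9.50 CPM, a log2 fold change of 0.42 (adjusted p = 0.0504). On chow it was 6.26 to 9.24 CPM and 7.95 to 12.6 CPM, a log2 fold change of 0.40 (adjusted p = 0.0855). The 3 values lay close together and above 0, and none passed the test.

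Nfe2l2 itself was not called in any comparison of genotype. Its level was 59.4 to 98.3 CPM in the WT mice of all 3 tables and 70.9 to 115 CPM in the KI mice. The log2 fold changes were 0.18 in BAT (adjusted p = 0.325), 0.12 in inguinal WAT on HFD (adjusted p = 0.355) and 0.31 on chow (adjusted p = 0.0897). Keap1, its inhibitor, had -0.19, -0.01 and 0.10 in the same order, and Bach1, the competing repressor, -0.04, 0.13 and 0.13. None of these was called.

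**Figure D3:**
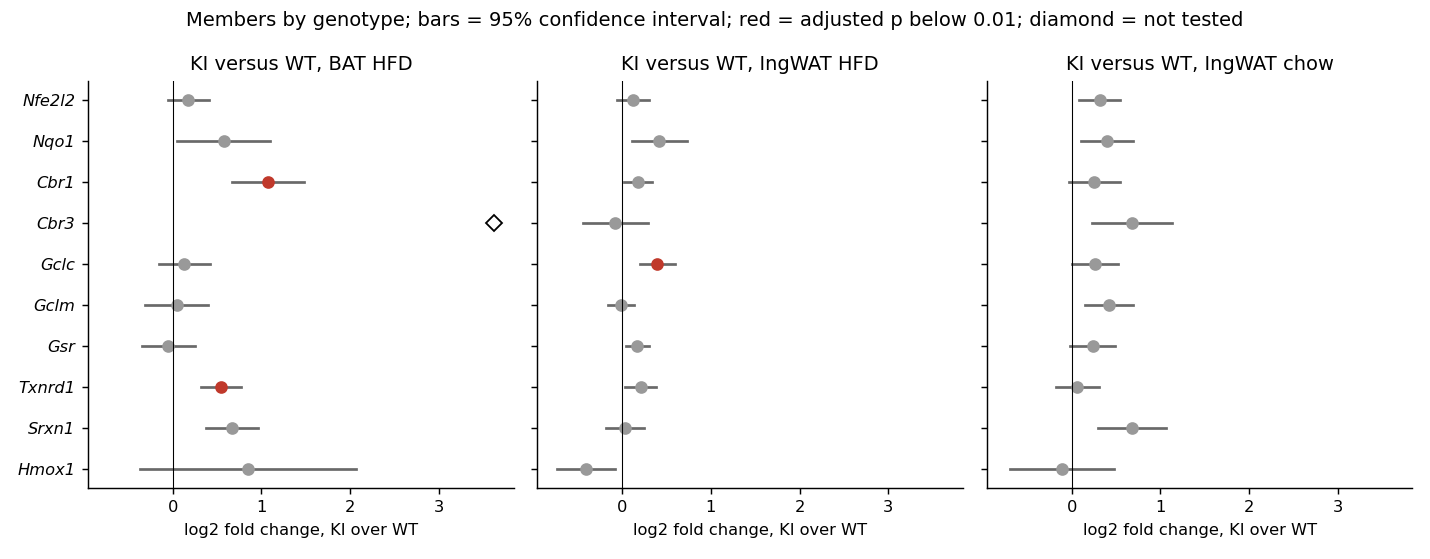
Log2 fold change of each member (KI over WT) in BAT and inguinal WAT on HFD and in inguinal WAT on chow, with 95% confidence intervals; red points passed an adjusted p of 0.01 and the open diamond, Cbr3 in BAT, was not tested. Cbr1 and Txnrd1 in BAT and Gclc in inguinal WAT on HFD are the red points, and no point on chow is red.

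Hmox1, the inducible haem oxygenase, spread widely between the KI mice of BAT. It was 19.4 to 46.9 CPM in WT mice and 16.1 to 185 CPM in KI mice. KI mouse 5 alone, at 185 CPM, set the log2 fold change of 0.85 (SE 0.55, adjusted p = 0.373), and without it the value was 0.02. In inguinal WAT on HFD its fitted change lay below 0. WT mice had 68.2 to 103 CPM and KI mice 41.2 to 106 CPM, and 6 of 8 KI mice lay below every WT mouse. The log2 fold change was -0.41 (adjusted p = 0.0680), and without KI mouse 5, the highest, it was -0.57 with an adjusted p of 0.00111. On chow it was -0.11 (adjusted p = 0.846).

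Macrophages carry much of the Hmox1 of many tissues, and their markers varied with it. The 8 macrophage markers summed to 646 to 1028 CPM in WT and 444 to 1337 CPM in KI inguinal WAT on HFD, and KI mouse 5 had the highest sum. There 1 of the 8 was called lower in KI mice, and the median log2 fold change of the list was -0.42. In BAT the sums were 161 to 454 CPM in WT and 148 to 261 CPM in KI mice, where Marco was at 0 in the median KI mouse, and KI mouse 5, with the highest Hmox1, had 188 CPM. Over the 41 mice, after subtracting each group's mean from log2 values, Hmox1 and the marker sum had r = 0.58. The mice of a table share its processing, and the part of macrophages in the Hmox1 values was not tested.

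**Figure D4:**
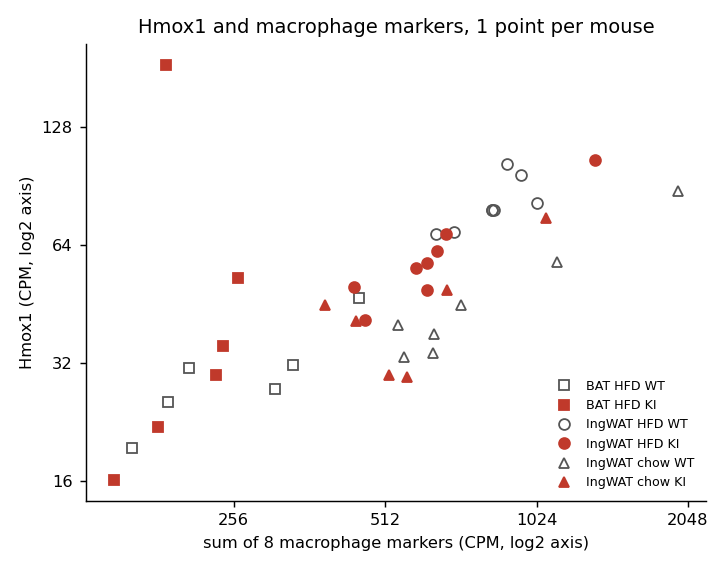
Hmox1 level of each mouse against the sum of 8 macrophage markers (both in CPM, log2 axes); shapes mark the table, open symbols WT and filled red symbols KI. Mice with a higher marker sum tend to lie higher (r = 0.58 within groups), and BAT KI mouse 5 stands apart at 185 CPM of Hmox1 and 188 CPM of markers.

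Within BAT of KI mice, mice 5 and 6 held most of the extremes. Mouse 5 was the highest of its 6 for 6 members, Gclc, Gclm, Gsr, Txnrd1, Srxn1 and Hmox1, and the lowest for Cbr1. Its Cbr3 level, 82.7 CPM, was the second lowest. Mouse 6 was the lowest for 9 of 10 members, among them Cbr3 at 37.1 CPM, and had 758 CPM of skeletal muscle markers. Without mouse 5 the count of called members in BAT was also 2. Over all 41 mice within groups, the 45 pairs of members had correlations of log2 CPM from -0.66 to 0.65 with a median of 0.11, and 32 were above 0. Gclm with Srxn1 was the highest at 0.65, followed by Cbr3 with Srxn1 at 0.60, and Cbr1 with Hmox1 was the lowest at -0.66. These are descriptions over mice that share depth and tissue composition.

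**Figure D5:**
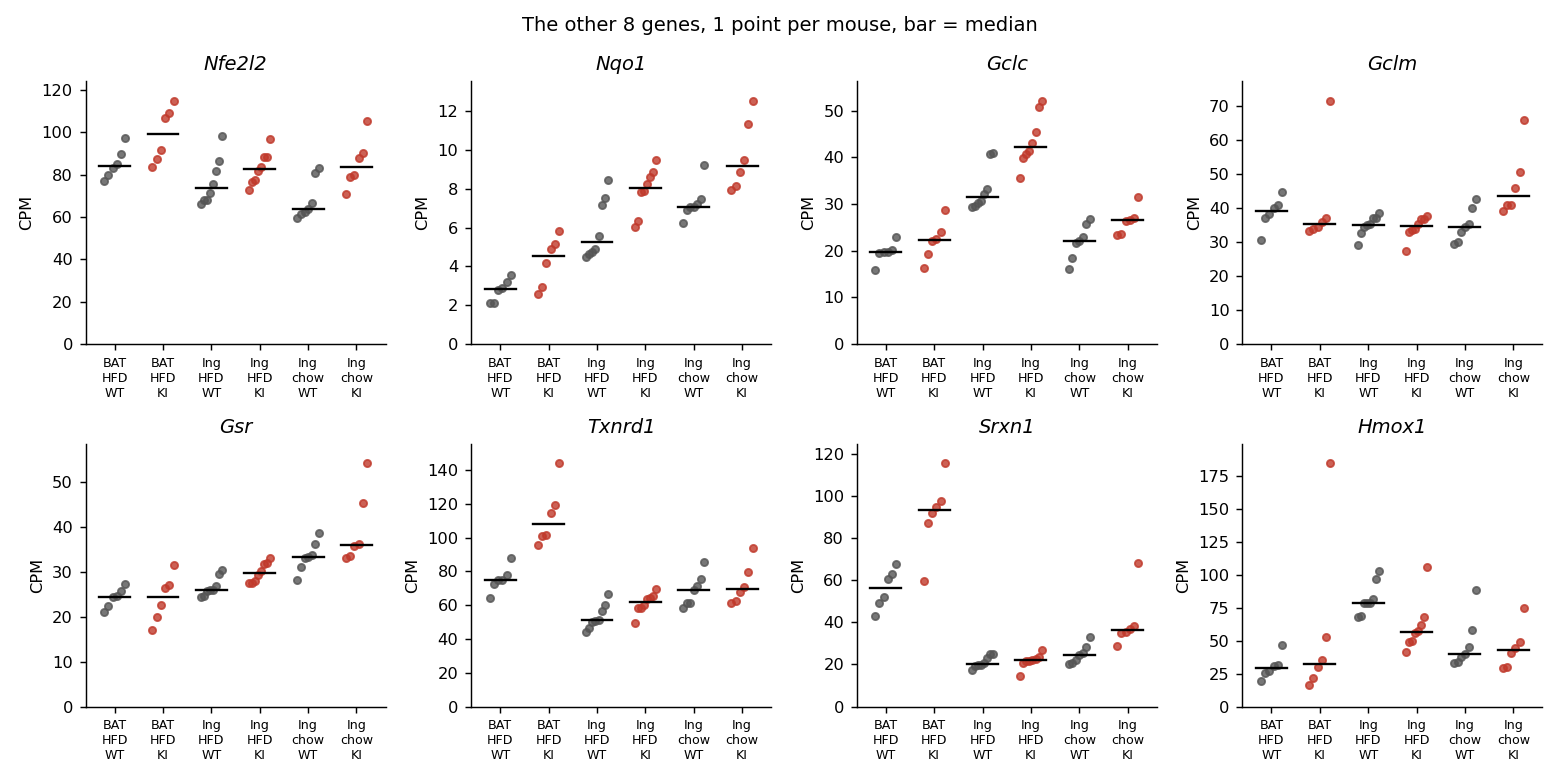
Level of the other 8 members in each mouse (CPM, axes from 0), by depot, diet and genotype, with the median as a bar. In BAT, 6 of 6 KI mice for Txnrd1 and 5 of 6 for Srxn1 lie above the WT mice, as do 5 of 8 for Gclc in inguinal WAT on HFD, and single mice stand far out for Gclm (71.8 CPM) and Hmox1 (185 CPM) in BAT of KI mice.

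Whether diet changed the effect of genotype was tested by the difference of the effects in inguinal WAT, HFD minus chow. No member was called, by edgeR or by DESeq2, against 0.632% of 17400 genes tested by edgeR and 2.43% of those tested by DESeq2. Of the 17400 genes, 2927 had an unadjusted p below 0.05 by edgeR, as did 3 of 10 members. These were Cbr3 at -0.75 on the log2 scale (adjusted p = 0.164), Srxn1 at -0.64 (adjusted p = 0.0959) and Gclm at -0.42 (adjusted p = 0.108), each with the smaller value on HFD. Between depots, edgeR called 1 of 9 members tested, Cbr1, against 2.82% of 17214 genes tested. DESeq2 called 2, Cbr1 and Srxn1, against 5.02% of the genes it tested.

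The WT mice give the members' levels by diet and depot. In WT inguinal WAT, 5 of 10 members differed between HFD and chow, while 27.7% of 16318 genes tested were called. Gclc was higher on HFD by 0.59 on the log2 scale (adjusted p = 0.000498), and every HFD mouse lay above every chow mouse. Hmox1 was higher by 0.76 (adjusted p = 0.00363), a call lost in 1 fit of all 6 groups (adjusted p = 0.0568) and with library totals (0.0102). Cbr1 (-0.48), Txnrd1 (-0.39) and Gsr (-0.34) were lower, and the Txnrd1 call was lost with library totals (adjusted p = 0.0112) and with no filter on low counts (0.0105). Cbr3 had -0.50 and an adjusted p of 0.0272. The diets came as separate tables with different depth, and diet and table cannot be told apart.

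Between WT BAT and WT inguinal WAT on HFD, 6 of 9 members tested were called, and 57.1% of 16271 genes tested were. Srxn1 was higher in BAT by 1.39 on the log2 scale (2.63-fold) and Cbr1 by 1.24 (2.36-fold), both without overlap between mice. Txnrd1 was higher by 0.51, but with library totals alone it was at -0.02. Hmox1 (-1.43), Nqo1 (-1.09) and Gclc (-0.75) were lower in BAT, also without overlap. Library totals alone moved the median of all genes by -0.52, and under them Srxn1 and Cbr1 kept their direction, as did the 3 lower members. Under totals edgeR also called Nfe2l2 (-0.36, adjusted p = 0.00183), Gclm (-0.37, 0.00167) and Gsr (-0.65, 3.4e-05) lower in BAT. Totals called 66.7% of all genes tested there.

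Other genes of the same pathways were taken from a list of 71, by role. The list was drawn up with earlier results of these data known, so its shares and medians are a description. In BAT, 67 were tested, and 4 were called higher and 1 lower, where 1.83% of all genes tested were called. The median log2 fold change was 0.11 over the list and -0.01 over all genes tested. Gsta3, a glutathione S-transferase, had 20.4 ± 7.45 CPM (SD, n = 6) in KI and 4.94 ± 2.55 CPM in WT mice, a log2 fold change of 2.04 (adjusted p = 0.00344). Near-identical Gsta copies could share its reads. Abcc4, an export pump for organic anions, had 92.4 ± 23.9 CPM against 29.6 ± 5.92 CPM, a log2 fold change of 1.60 (adjusted p = 0.000155). Gss, the second enzyme of glutathione synthesis, had 121 ± 15.7 CPM against 67.6 ± 7.09 CPM (log2 fold change 0.81, adjusted p = 0.000514). Gstt1, another glutathione S-transferase, fell by 0.68 on the log2 scale (adjusted p = 0.000842). The fourth gene called higher was Ftl1, a ferritin light chain gene named here after its values were seen, at 0.76 (adjusted p = 0.00892). Without WT mouse 2, 3 were called higher and 1 lower.

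In inguinal WAT on HFD, 18 of 69 listed genes were called higher and 6 lower, where 11.5% of all genes tested were called and 6.21% were called higher. The median log2 fold change was 0.13 over the list and 0.01 over all genes tested. The largest rises were in glutathione genes, Gpx3 (2.43), Gsta4 (1.35) and Gsta3 (1.26). Gpx3, the secreted glutathione peroxidase, had 1318 ± 193 CPM in KI and 246 ± 99.7 CPM in WT mice (n = 8 each, adjusted p = 1.18e-07). The largest falls were in Mgst2 (-1.25), Me1 (-0.55) and Ptgr1 (-0.54). Me1, the cytosolic malic enzyme that makes NADPH, was at 298 CPM in KI and 437 CPM in WT mice, and without KI mouse 3 its adjusted p was 0.0193. Without that mouse, which had the highest skeletal muscle marker sum of its group, 18 listed genes were called higher and 3 lower. Of the 9 regulators, 4 were called higher, Mafg, Mafk, Sqstm1 and Nfe2l1, named here after their values were seen, at 0.56 to 0.72. Of the 11 thioredoxin and peroxiredoxin genes, 5 were called higher and none lower. The glutathione genes had 6 higher and 1 lower, and the haem and iron genes 1 and 0. The NADPH supply genes had 1 higher, the transketolase gene Tkt at 0.91, and 3 lower, Me1, Pgd at -0.46 and Idh1 at -0.37. Tkt, Pgd and Idh1 are named here after their values were seen. The carbonyl, quinone and xenobiotic genes had 1 and 2, and the superoxide and peroxide genes 0 and 0.

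On chow, 7 of 67 listed genes were called higher and 2 lower, against 7 and 0 without KI mouse 4 and 5 and 4 without WT mouse 4. Of all genes tested there 3.23% were called, and the median log2 fold change was 0.13 over the list and -0.01 over all genes. Tkt, a transketolase of the pentose phosphate pathway, had 2709 ± 1785 CPM (SD, n = 6) in KI and 541 ± 147 CPM (n = 7) in WT mice, a log2 fold change of 2.31 (adjusted p = 0.000742). Chac1, which degrades glutathione, had 28.9 ± 9.41 CPM against 6.33 ± 1.79 CPM (2.18, adjusted p = 9.21e-05). Gsta3 had 0.97 (adjusted p = 0.00754). Ptgr1 (-1.10) and Gpx1 (-0.67) fell, and without KI mouse 4 both had an adjusted p of 0.0142. Gsta3 was the only listed gene called in all 3 comparisons of genotype. It rose in each, while of the members none was called in more than 1. Without the WT mouse of chow with the highest macrophage marker sum, mouse 4, the adjusted p of Gsta3 on chow was 0.0104.

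The differences of these effects were tested as well, and the genes given for them were named after their values were seen. Between diets in inguinal WAT, HFD minus chow, 2 of 69 listed genes were called higher, Gpx3 at 2.03 and Gstm1 at 1.43 on the log2 scale, and 1 lower, Me1 at -2.18, where 0.632% of all genes tested were called. Between depots on HFD, BAT minus inguinal WAT, 4 of 69 were called higher and 5 lower, where 2.82% of all genes tested were called. Abcc4 had 1.47, Slc3a2, which carries the cystine transporter to the membrane, 1.13, and Hmox2, the constitutive haem oxygenase, 0.74. Gpx3 had -1.89, Aldh1a1, a retinal dehydrogenase, -1.59, and Gstm1 -1.40.

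The genes whose levels followed Cbr3 most closely over the 41 mice, after subtracting the mean of each table from log2 CPM, were Abcc4 (r = 0.87), Plekhm2 (0.87), Tenm4 (0.86), Rnf185 (0.84) and Sat1 (0.82). In BAT their mean levels in WT and KI mice were 29.6 and 92.4 CPM for Abcc4, 47.3 and 132 CPM for Plekhm2, 21.4 and 76.1 CPM for Tenm4, 46.4 and 127 CPM for Rnf185, and 151 and 360 CPM for Sat1. The BAT mice on which Cbr3 was picked are among the 41, so the likeness is a description. Among the members, Cbr1 ranked 21 (0.76), Srxn1 ranked 44 (0.71) and Txnrd1 ranked 169 (0.63), and Gclc, Gclm and Gsr ranked 4032 to 5564, at 0.08 to 0.18. Subtracting table means leaves the difference between genotypes in these values. With each group's mean subtracted instead, r with Cbr3 was 0.29 for Cbr1, 0.60 for Srxn1 and 0.17 for Txnrd1.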

How the data were processed

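RNA of whole fat tissue was sequenced from poly(A) libraries on a NovaSeq (paired 150-base reads). The deposited values are raw counts per gene: per the submitters' notes the authors trimmed with cutadapt, aligned with STAR to GRCm38, sorted with SAMtools and counted with featureCounts, with versions, annotation release and strand setting not given in the sources used here. Entries without a length or count (1884 of 54838) were left out, and symbols listed more than once with identical counts were kept once, which left 52853 genes and 41 mice. Per-mouse totals were 8042591 to 25680411 counts, so low members such as Nqo1 and Cbr3 rest on 13 to 236 counts in a WT mouse.

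Groups came from the labels. Genotype, depot and diet were compared with edgeR 4.0.16 (R 4.3.3): filterByExpr, TMM factors, robust quasi-likelihood fits on the groups compared only, Benjamini-Hochberg adjusted p below 0.01 over all genes tested. The authors used DESeq2, which is an alternative here (1.42.0). The printed CPM values use TMM factors over all 41 mice and the fold changes those of the fit, so a ratio of printed means can differ slightly. The scripts' fits were tested on simulated data. Same-numbered mice were not paired: their deviations correlated from -0.25 to 0.72. Alternatives were other size factors, filters, 1 fit of all 6 groups, a threshold of 0.05, mitochondrially encoded genes left out, the mouse number as a block and each mouse left out.

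The members and lists were chosen with earlier results of these data known. The genes named by rule are the 10 members, Mfn2, Keap1, Bach1, up to 3 largest called rises and falls of the pathway list per comparison of genotype, the 5 genes most like Cbr3, and tested genes starting within 200 kb of Cbr3. Further genes of the pathway list were named after their values were seen, which is said where they appear.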

Additional observations from a re-analysis of the deposited data

Results flagged for a closer look

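In 6 of 60 pairs of member and group, the highest or lowest mouse lay farther from its nearest neighbour than Dixon's 95% critical value allows, where chance gives about 1 in 20. BAT KI mouse 5 was such a high mouse for Gclm (71.8 CPM) and for Hmox1 (185 CPM). KI mouse 5 of inguinal WAT on HFD was also a high mouse for Hmox1 (106 CPM), and the labels do not say whether both tissues came from the same animal. Gclm was low in KI mouse 2 of inguinal WAT on HFD (27.5 CPM), the library with the highest lymphocyte marker sum of its group (542 CPM). Srxn1 was high in chow KI mouse 1 (68.0 CPM), and Nqo1 in chow WT mouse 5 (9.24 CPM).

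The effect of genotype on Cbr1 differed between BAT and inguinal WAT on HFD by 0.93 on the log2 scale (edgeR interaction test, adjusted p = 0.00229). Without BAT KI mouse 5 or BAT WT mouse 2, left out after the data were seen, 1 member was still called in this comparison.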

How the results depend on the processing

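Of the 70 values given for the members (7 comparisons), DESeq2 kept 67 in direction and side of the threshold, other size factors (RLE) 69, a minimum of 10 counts 68, no filter 67, mitochondrially encoded genes left out 70, and 1 fit of all 6 groups 67. Library totals without TMM kept 54. Under totals the number of members called was 2 in inguinal WAT on HFD, 0 for the difference between depots and 3 for HFD against chow. Of all genes tested, totals called 15%, 2.76% and 26% in these comparisons. On chow 1 member was called with DESeq2, with 1 fit of all 6 groups and at a threshold of 0.05. These settings called 6.69%, 6.72% and 8.56% of all genes. Between depots 2 members were called with DESeq2 and 2 at a threshold of 0.05, where 5.02% and 7.44% of all genes were. Same-numbered mice were not paired by the labels, but with the replicate number as a block 68 values kept direction and side. With that block the difference between depots had 2 members called, Cbr1 and Srxn1 (adjusted p = 0.00826 for Srxn1), where 2.43% of all genes were. In all, 363, 1545 and 102 genes were then called in BAT and in inguinal WAT on HFD and on chow. Each KI mouse correlated best with the WT mouse of its own number in 2 of 6, 1 of 8 and 0 of 6 pairs.

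Directions turned under library totals: Cbr3 to 0.00417 and Gclm to 0.0740 in inguinal WAT on HFD, Cbr1 to 0.0553 and Gsr to 0.0725 between diets, Nfe2l2 to -0.0154 and Gclm to -0.0253 between depots, and Nfe2l2 to -0.361, Gclm to -0.368 and Txnrd1 to -0.0232 in WT BAT against inguinal WAT. In the last, Nfe2l2 (adjusted p = 0.00183) and Gclm (0.00167) were then called lower in BAT by edgeR. For HFD against chow, Gclm turned to 0.000362 with no filter and 0.00317 with a minimum of 10 counts. With each mouse left out, members called ranged from 0 to 3 in BAT and 0 to 2 in inguinal WAT on HFD. Ranges that crossed 0 were, in BAT, -0.168 to 0.116 (Gclm) and -0.123 to 0.0473 (Gsr); in inguinal WAT on HFD, -0.159 to 0.0346 (Cbr3), -0.0502 to 0.0207 (Gclm) and -0.0181 to 0.0953 (Srxn1); and on chow, -0.0181 to 0.127 (Txnrd1) and -0.323 to 0.128 (Hmox1). Leave-outs chosen after seeing the data moved Gsr between diets from -0.0480 to 0.0559, Gclm between depots from -0.134 to 0.102, and Gclm for HFD against chow to 0.0303. The cause of these changes was not tested.

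Counts over all genes moved by more than 1.5 times in BAT from 243 to 717 (DESeq2), 834 (1 fit of all groups) and 952 (threshold 0.05); in inguinal WAT on HFD from 1886 to 1242 (1 fit) and 3448 (0.05); on chow from 472 to 1107 (DESeq2), 1088 (1 fit), 102 (block) and 1252 (0.05); between diets from 110 to 409 (DESeq2), 175 (totals), 168 (minimum 10), 42 (block), 500 (0.05) and, without chow WT mouse 4, 206; between depots from 485 to 848 (DESeq2) and 1280 (0.05); and for HFD against chow from 4514 to 6831 (0.05). Under library totals the share of calls that were higher went from 54.2% to 73.5% in inguinal WAT on HFD, 32.7% to 64.0% between diets, 56.1% to 38.3% between depots and 48.4% to 20.8% in WT BAT against inguinal WAT, and the median of all genes moved by 0.126 between diets, -0.111 between depots and -0.521 in the last. At these depths Nqo1 in BAT rests on 13 to 40 counts per mouse.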
